A study of Mus musculus with 6 samples.

Results

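The circadian clock genes described here are 10 genes of the transcriptional feedback loop that runs in most cells with a period of about a day. They were chosen by symbol, and all 10 (*Clock*, *Arntl*, *Per1*, *Per2*, *Per3*, *Cry1*, *Cry2*, *Nr1d1*, *Nr1d2* and *Dbp*) are among the 11339 genes listed for mouse retina. In this loop the CLOCK and ARNTL proteins (ARNTL is also called BMAL1) bind E-box sequences together and switch on the *Per* and *Cry* genes, whose proteins return to the nucleus and inhibit them. They also switch on *Nr1d1*, *Nr1d2* and *Dbp*: the NR1D1 and NR1D2 proteins (REV-ERB alpha and beta) repress *Arntl* through ROR elements, and DBP activates genes that carry D-boxes. The retina holds a clock of its own that is set by light and drives daily rhythms of dopamine, melatonin and photoreceptor metabolism, so the mRNA levels of clock genes depend on the time at which a retina is collected.

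The study compared retinas with and without MLL1, a histone methyltransferase encoded by *Kmt2a* (older symbol *Mll1*), by RNA sequencing at postnatal day 14. The *Mll1KO* group has 3 samples from mice with both *Mll1* alleles floxed and the *Chx10-Cre* transgene, and the WT group has 3 wild-type samples. Strain C57Bl6/J is given for both groups, and neither received a treatment. Each sample was made from a pair of retinas. *Chx10-Cre* expresses Cre recombinase in retinal progenitor cells, so cells of other origin in the retina, such as vessels and microglia, keep the gene. The WT samples are labelled wild type and not as littermates lacking Cre, so the genotype cannot be told apart from the presence of Cre or from differences between breeding groups. The labels and methods used here give no time of day, light schedule or date of collection. A difference in collection time between the groups therefore cannot be told apart from the genotype, and a difference between samples of 1 genotype can only be described. The p-values rest on the spread between these 3 and 3 samples. The test used below draws each gene's spread toward a trend over all genes.

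Expression is given as RPKM, the reads of a gene scaled to its length and to the library total, as deposited. Below, values of a genotype stand in the order of its replicates a, b and c, which have no order in themselves. The WT library totals recovered from these values were 23836033, 19777205 and 19323512 reads, and those of *Mll1KO* 23348923, 19855963 and 17961097 reads. The clock genes had between 726 reads (*Per2*) and 5717 reads (*Nr1d1*) in a library. Counting error alone, for which the fewest reads of a gene give the largest value, came to an SD of 3.71% of the level for *Per2* and 1.58% for *Nr1d1*. Changes were tested with limma on log2(RPKM + 1) over all 11339 genes, with Benjamini-Hochberg adjustment and a threshold of 0.05. A gene is said to have risen or fallen only where its adjusted p lies under this threshold, and all fold changes are on the log2(RPKM + 1) scale, which understates the change of weakly expressed genes.

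The targeted gene *Kmt2a* had 36.1, 36.9 and 34.6 RPKM in WT and 22.9, 20.4 and 22.3 RPKM in *Mll1KO*. Each *Mll1KO* sample lay below each WT sample, so the genotype labels fit the data in every sample. *Kmt2a* fell by 0.69 on the log2 scale (standard error 0.05, limma adjusted p = 2.77e-05), and most of its exons are not among those removed by Cre. The labelled tissue also fits. All 8 rod markers, all 8 bipolar cell markers and all 8 Müller glia markers were listed. In bulk tissue, fewer cells of a type and less RNA per cell cannot be told apart.

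Of the 10 clock genes, 4 changed between genotypes: *Arntl* fell, and *Per1*, *Nr1d1* and *Dbp* rose. Over all 11339 genes 2643 changed, which is 23.3%. In the direction of *Mll1KO* over WT, 3 clock genes were called, where 8.81% of all genes (999) rose, and 1 was called in the other direction, where 14.5% (1644) fell. With TMM scaling of the same values the split over all genes was 1257 higher and 1163 lower, and the same 4 clock genes were called. The 3 values of one genotype did not overlap the 3 of the other in 7 of the 10 clock genes, beside 41.1% of all genes. The median log2 fold change of the clock genes was 0.08, beside -0.03 over all genes. These are small numbers of genes, and leaving out WT b alone ended all 3 higher calls. Other samples that end a call are given below.

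**Figure D1:**
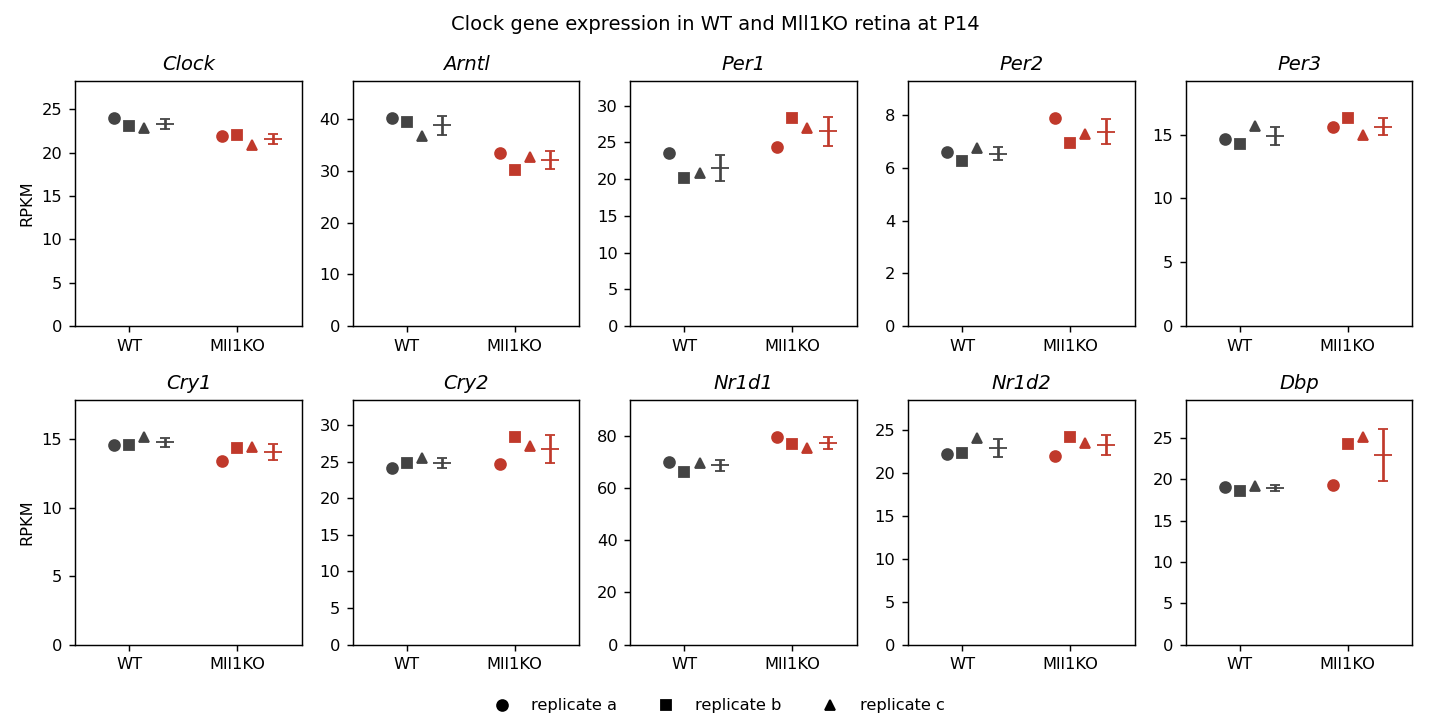
RPKM of the 10 clock genes in each of the 3 WT (grey) and 3 *Mll1KO* (red) samples, with the symbol shape giving the replicate and the bars giving the group mean with its SD. *Arntl* lies between 36.8 and 40.2 RPKM in WT and between 30.2 and 33.4 RPKM in *Mll1KO*, and *Dbp* of *Mll1KO* sample a lies at 19.3 RPKM, beside 24.3 and 25.1 RPKM in samples b and c.

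The positive arm of the loop comes first. *Arntl* (chromosome 7 from 113207465 to 113314126, plus strand, GRCm38) had 40.2, 39.4 and 36.8 RPKM in WT and 33.4, 30.2 and 32.7 RPKM in *Mll1KO*. Every *Mll1KO* sample was below every WT sample, with *Mll1KO* b lowest. *Arntl* fell to 82.7% of WT, a log2 fold change of -0.27 (standard error 0.05, 95% interval -0.38 to -0.15, limma adjusted p = 0.00497). It was called in all 15 fits, with adjusted p between 0.00177 and 0.0242. Its partner *Clock* (chromosome 5 from 76209868 to 76304792, minus strand) had 24.0, 23.1 and 22.8 RPKM in WT and 21.9, 22.0 and 20.9 RPKM in *Mll1KO*. The groups did not overlap here either, but the distance was small. The log2 difference of -0.10 (95% interval -0.20 to -0.01) did not pass the test after adjustment (limma adjusted p = 0.101).

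Among the inhibitors, *Per1* (chromosome 11 from 69095217 to 69109960, plus strand) had 23.6, 20.2 and 20.8 RPKM in WT and 24.4, 28.3 and 27.0 RPKM in *Mll1KO*. *Mll1KO* sample a was only just above WT sample a, and *Mll1KO* b and c were well above all WT samples. *Per1* rose to 123% of WT, which is 0.29 on the log2 scale (95% interval 0.14 to 0.44, limma adjusted p = 0.0133). Leaving out *Mll1KO* c or WT b ended the call, with adjusted p of 0.0507 and 0.0548, in a range from 0.00428 to 0.0548 over all settings. *Per2* (chromosome 1 from 91415982 to 91459324, minus strand), the least abundant of the 10, had 6.59, 6.27 and 6.77 RPKM in WT and 7.88, 6.95 and 7.28 RPKM in *Mll1KO*. All 3 *Mll1KO* values were above the WT values, and here *Mll1KO* a was the highest of its group. The log2 difference was 0.15 (95% interval 0.02 to 0.28) and did not pass the test (limma adjusted p = 0.0925). *Per3* (chromosome 4 from 151003652 to 151044665, minus strand) had 14.7, 14.3 and 15.7 RPKM in WT and 15.6, 16.3 and 15.0 RPKM in *Mll1KO*, and the groups overlapped. Its log2 difference was 0.07 (95% interval -0.05 to 0.18, limma adjusted p = 0.366).

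The cryptochromes bind the CLOCK and ARNTL pair together with the PER proteins. *Cry1* (chromosome 10 from 85131700 to 85185064, minus strand) had 14.6, 14.6 and 15.2 RPKM in WT and 13.4, 14.4 and 14.4 RPKM in *Mll1KO*. The *Mll1KO* values were all below the WT values by a narrow distance, and *Mll1KO* a was the lowest. The log2 difference was -0.07 (95% interval -0.17 to 0.04, limma adjusted p = 0.336). *Cry2* (chromosome 2 from 92403646 to 92434043, minus strand) had 24.2, 24.8 and 25.5 RPKM in WT and 24.8, 28.4 and 27.1 RPKM in *Mll1KO*. *Mll1KO* sample a lay inside the WT range and the other 2 above it, so the groups overlapped. The log2 difference was 0.10 (95% interval -0.02 to 0.22, limma adjusted p = 0.196). Without *Mll1KO* sample a it was 0.15 and passed (adjusted p = 0.0435, in a range from 0.0435 to 0.496 over all settings).

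The second loop runs through the nuclear receptors. *Nr1d1* (chromosome 11 from 98767932 to 98775333, minus strand) was the most abundant clock gene, with 70.1, 66.1 and 69.7 RPKM in WT and 79.6, 77.0 and 75.1 RPKM in *Mll1KO*. The lowest *Mll1KO* value exceeded the highest of WT, and *Mll1KO* a was the highest. *Nr1d1* rose to 113% of WT, which is 0.17 on the log2 scale (95% interval 0.08 to 0.26, limma adjusted p = 0.0166), and the call was lost without WT b (adjusted p = 0.0741, in a range from 0.00755 to 0.0741). Its exons share 263 bases, 8.55% of their length, with *Thra* on the opposite strand. *Thra*, which encodes a thyroid hormone receptor, fell by 0.18 (limma adjusted p = 0.0110), and since the use of strand in counting is not given, reads of the shared bases cannot be told apart. *Nr1d2* (chromosome 14 from 18204054 to 18239127, minus strand) had 22.1, 22.3 and 24.0 RPKM in WT and 21.9, 24.1 and 23.5 RPKM in *Mll1KO*, with overlapping groups. Its log2 difference was 0.02 (95% interval -0.09 to 0.14, limma adjusted p = 0.789), and its sign changed without *Mll1KO* b.

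*Dbp* (chromosome 7 from 45705088 to 45710203, plus strand), the output factor, had 19.1, 18.5 and 19.2 RPKM in WT and 19.3, 24.3 and 25.1 RPKM in *Mll1KO*. *Mll1KO* sample a lay just above the highest WT sample, and samples b and c stood well apart from all others. *Dbp* rose to 121% of WT, by 0.26 on the log2 scale (95% interval 0.07 to 0.44, limma adjusted p = 0.0499), at the edge of the threshold. Without *Mll1KO* a it was 0.37, with an adjusted p of 0.000914, and leaving out any one of the other 5 samples ended the call, with adjusted p up to 0.166, as did a pseudocount of 5 (0.0509). *Dbp* exons share 539 bases, 18.0% of their length, with *Sphk2* on the opposite strand, and *Sphk2*, a sphingosine kinase gene, fell by 0.21 (limma adjusted p = 0.0391).

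By level per length, the order in WT was *Nr1d1*, *Arntl*, *Cry2*, *Clock*, *Nr1d2*, *Per1*, *Dbp*, *Per3*, *Cry1* and *Per2*. Neighbours whose 3 sample values overlapped in WT were *Clock* with *Nr1d2*, *Nr1d2* with *Per1*, and *Per3* with *Cry1*. In *Mll1KO* the order was *Nr1d1*, *Arntl*, *Cry2*, *Per1*, *Nr1d2*, *Dbp*, *Clock*, *Per3*, *Cry1* and *Per2*, with overlaps between *Cry2* and *Per1*, *Nr1d2* and *Dbp*, and *Dbp* and *Clock* as neighbours. *Clock* thus stood above *Per1* and *Dbp* by group mean in WT and below both in *Mll1KO*.

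*Dbp* and *Nr1d1* mRNA are known to peak at a phase of the day when *Arntl* mRNA is low, and a ratio of 2 genes within 1 sample does not depend on library scaling. The log2 ratio of *Dbp* to *Arntl* RPKM was -1.08, -1.09 and -0.94 in WT and -0.79, -0.32 and -0.38 in *Mll1KO*. The groups did not overlap, and *Mll1KO* a lay between the WT samples and the other *Mll1KO* samples. The means differed by 0.54, beside an SD of 0.08 in WT and 0.26 in *Mll1KO*. The log2 ratio of *Nr1d1* to *Arntl* was 0.80, 0.75 and 0.92 in WT and 1.25, 1.35 and 1.20 in *Mll1KO*. Here the *Mll1KO* samples lay close together (SD 0.08, beside 0.09 in WT) and the means differed by 0.44. No test was made of these ratios. Both have *Arntl* as denominator and use only genes called above, so they restate those changes and are not independent. Of the other genes that CLOCK and ARNTL switch on, *Per1* rose, and *Per2*, *Per3*, *Cry1*, *Cry2* and *Nr1d2* were not called. With no time recorded, a difference in collection time and an effect of the genotype on the loop cannot be told apart.

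**Figure D2:**
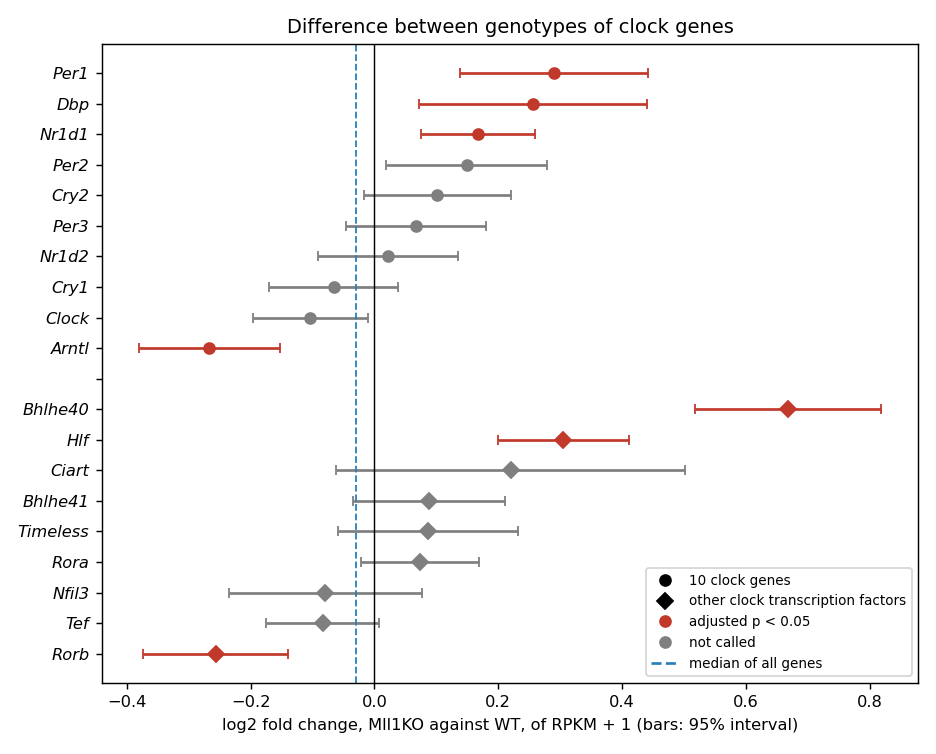
Log2 fold change of *Mll1KO* against WT on the log2(RPKM + 1) scale with its 95% interval for the 10 clock genes (circles) and the 9 other clock transcription factors listed (diamonds), in red where the limma adjusted p is under 0.05. *Arntl* lies at -0.27 and *Per1* at 0.29, and the dashed line marks the median of all genes at -0.03.

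The spread between replicates is given next, and whether it reflects collection time was not tested. The residual SD within genotypes on the log2(RPKM + 1) scale had a median of 0.07 over the clock genes (0.0661), beside 0.0665 over all genes. It ranged from 0.04 in *Clock* to 0.14 in *Dbp*. Only 5.79% of all genes had a larger residual SD than *Dbp*, and 15.5% a larger one than *Per1*. *Nr1d1* was among the steadier genes, since 79.1% of all genes varied more. For *Dbp* the spread came from *Mll1KO*, with an SD of 3.12 RPKM, beside 0.34 RPKM in WT. *Mll1KO* sample a was the lowest of its group in 5 clock genes and the highest in 3, beside 35.3% and 36.7% of all genes. WT sample b was the lowest of its group in 5 and the highest in 0, beside 28.0% and 33.3%.

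Of 12 other clock transcription factors 9 were listed, and *Npas2* and *Arntl2* were among those not analysed here. Among the 9, 2 rose and 1 fell, beside 8.81% higher and 14.5% lower among all genes. The median log2 fold change was 0.09. *Bhlhe40*, whose protein (DEC1) represses E-box genes, had 8.37, 7.46 and 8.86 RPKM in WT and 13.2, 13.1 and 14.7 RPKM in *Mll1KO*. The groups stood far apart, and *Bhlhe40* rose by 0.67 (standard error 0.07, limma adjusted p = 0.000154). *Hlf*, a relative of *Dbp*, had 29.4, 26.9 and 28.8 RPKM in WT and 34.7, 34.3 and 36.9 RPKM in *Mll1KO*. Its groups did not overlap, *Mll1KO* a was no lower than b, and the log2 fold change was 0.30 (limma adjusted p = 0.00173). *Rorb*, an activator at ROR elements that photoreceptors and other retinal neurons express, had 35.6, 38.6 and 37.7 RPKM in WT and 33.4, 29.7 and 30.3 RPKM in *Mll1KO*. It fell by 0.26 (limma adjusted p = 0.00712) without overlap.

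The other 6 did not pass. *Tef*, another relative of *Dbp*, had a log2 difference of -0.08 (limma adjusted p = 0.166), *Nfil3*, the D-box repressor, one of -0.08 (0.447), and *Rora* one of 0.07 (0.244). *Bhlhe41* stood at 0.09 (0.276) and *Timeless* at 0.09 (0.368). *Ciart*, which represses the CLOCK and ARNTL pair and is one of the strongly rhythmic genes of many tissues, had 5.55, 5.50 and 6.23 RPKM in WT and 5.17, 7.84 and 7.90 RPKM in *Mll1KO*. *Mll1KO* a was below every WT sample, and b and c were above every WT sample. Only 0.97% of all genes had a larger residual SD. Its log2 difference was 0.22 (limma adjusted p = 0.237), and without *Mll1KO* a it was 0.39 (adjusted p = 0.00395, in a range from 0.00395 to 0.553).

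The kinases, ubiquitin ligases and binding partners that set the stability and activity of clock proteins had 13 of 14 genes listed (*Fbxl21* was not analysed here), of which 2 rose and 3 fell, beside 8.81% higher and 14.5% lower among all genes. The median was -0.04. *Usp2*, a ubiquitin protease and a target of the clock, had 19.2, 15.3 and 18.3 RPKM in WT and 22.8, 26.9 and 26.9 RPKM in *Mll1KO*. *Mll1KO* a was again the lowest of its group, though above all WT samples, and *Usp2* rose by 0.51 (limma adjusted p = 0.00252). *Cipc*, an inhibitor of CLOCK, rose by 0.28 (limma adjusted p = 0.00595). *Sfpq*, an RNA-binding partner of the PER proteins, fell by 0.35 (limma adjusted p = 0.000772). *Ddb1*, the most abundant of the list, and *Btrc*, the F-box protein that binds phosphorylated PER, fell by 0.14 and 0.13 (limma adjusted p = 0.0375 and 0.0350). These last 2 calls were lost with each of the 3 other scalings, with adjusted p between 0.0906 and 0.102. They were also lost without *Mll1KO* b, *Mll1KO* c, WT b or WT c, and that of *Ddb1* without *Mll1KO* a (adjusted p up to 0.136). The casein kinase genes *Csnk1d* and *Csnk1e*, whose products phosphorylate PER, did not pass (adjusted p = 0.602 and 0.579).

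All 10 chromatin cofactors of the clock were listed; 2 fell and none rose in the limma fit, where 8 did not pass, beside 14.5% lower and 8.81% higher among all genes. The median was -0.11, beside -0.03 over all genes. *Ezh2*, the methyltransferase of H3K27, fell by 0.33 (limma adjusted p = 0.00890). *Ep300*, an acetyltransferase, fell by 0.17 (limma adjusted p = 0.0252), a call that TMM, median-of-ratios and upper-quartile scaling ended (0.0687, 0.0762 and 0.0648, in a range from 0.00942 to 0.0962), as did leaving out *Mll1KO* b, *Mll1KO* c, WT a or WT b. *Chd4* was the most abundant, with a log2 difference of -0.07 (adjusted p = 0.159). Of 13 clock output genes 11 were listed (*Wee1* and *Tspo* were not analysed here), with 3 higher (*Bhlhe40*, *Hlf* and *Usp2*), 1 lower and a median of -0.04, where 8.81% of all genes were higher and 14.5% lower. *Vegfa*, the most abundant, was the one that fell, by 0.31 (limma adjusted p = 0.00205).

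Of 16 genes of retinal rhythms (melatonin, dopamine, cAMP and light input) 9 were listed. *Aanat*, *Asmt*, *Th*, *Adcyap1*, *Mtnr1a*, *Mtnr1b* and *Vip* were not analysed here. Of the 9, 1 rose and 4 fell, beside 8.81% higher and 14.5% lower among all genes. *Opn4*, the melanopsin of intrinsically photosensitive ganglion cells, had 4.99, 4.39 and 5.18 RPKM in WT and 2.33, 2.23 and 2.74 RPKM in *Mll1KO*. The groups stood far apart, and *Opn4* fell by 0.77 (limma adjusted p = 0.000120). *Drd2*, *Adcy1* and *Gnaz*, of dopamine and cAMP signalling, fell by 0.27, 0.22 and 0.14 (limma adjusted p = 0.00815, 0.00261 and 0.0398), the last of which was not called with the 3 other scalings or without *Mll1KO* b, *Mll1KO* c, WT b or WT c. *Adcyap1r1*, a receptor of the peptide PACAP, rose by 0.30 (limma adjusted p = 0.00600). *Drd4*, a dopamine receptor gene of photoreceptors with a strong daily rhythm, had 319, 307 and 333 RPKM in WT and 322, 347 and 304 RPKM in *Mll1KO*. Its groups overlapped and the log2 difference was 0.02 (95% interval -0.11 to 0.15, limma adjusted p = 0.843). *Pdc*, phosducin, was the most abundant at 0.04 (adjusted p = 0.677).

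Markers of ganglion cells as a class, not of the *Opn4* cells alone, also differed between the genotypes. Of 7 ganglion cell markers 6 fell and none rose in the limma fit, where 14.5% of all genes fell and 8.81% rose, shares that also stand against the counts below. Their summed level was 459, 419 and 445 RPKM in WT, led by *Sncg*, and 359, 321 and 293 RPKM in *Mll1KO*, led by *Thy1*. Of the *Mll1KO* samples, c had the lowest sum but the highest *Opn4* (2.74 RPKM). Of 8 Müller glia markers 5 rose, and their summed level, led by *Glul*, was 1313, 1291 and 1437 RPKM in WT and 1735, 1816 and 1778 RPKM in *Mll1KO*. Of the 8 rod markers 6 rose. Of 8 bipolar cell markers 5 fell.

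Markers of other cell types differed between the genotypes too. Of 5 horizontal cell markers listed (*Lhx1* was not analysed here) 4 fell, with sums, led by *Sept4*, of 136, 141 and 136 RPKM in WT and 94.98, 98.1 and 102 RPKM in *Mll1KO*. Of 7 amacrine cell markers 4 fell and 2 rose, with sums, led by *Slc32a1*, of 248, 235 and 245 RPKM in WT and 229, 227 and 255 RPKM in *Mll1KO*. Of 7 cone markers 5 rose and 1 fell, and the sums were 337, 352 and 369 RPKM in WT and 405, 423 and 442 RPKM in *Mll1KO*. By group mean *Opn1sw*, the marker that fell, was the most abundant in WT, and *Opn1mw* was in *Mll1KO*. Of 5 markers of vascular endothelium 2 fell and 1 rose, and the sums, led by *Kdr*, were 82.1, 80.3 and 78.1 RPKM in WT and 63.8, 57.1 and 57.6 RPKM in *Mll1KO*. Over all genes 14.5% fell and 8.81% rose. The part of these shifts in the clock gene values was not tested.

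Light, cAMP and handling induce immediate early genes within minutes, and they are given here because they also depend on the moment of collection. Of 16 such genes 11 were listed (*Fosb*, *Egr2*, *Egr3*, *Arc* and *Atf3* were not analysed here), 2 rose and none fell in the limma fit, beside 8.81% higher and 14.5% lower among all genes, and the median was 0.17. *Fos* had 7.05, 5.95 and 7.08 RPKM in WT and 13.2, 8.35 and 10.5 RPKM in *Mll1KO*. The groups did not overlap, *Mll1KO* a was the highest and b the lowest of its group, and *Fos* rose by 0.58 (limma adjusted p = 0.0105). *Btg2*, the most abundant, rose by 0.23 (limma adjusted p = 0.0353), a call that was lost without *Mll1KO* a, *Mll1KO* c, WT a or WT b (adjusted p up to 0.108).

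*Mll1KO* sample a was the highest of its group in 10 of these 11 genes, beside 36.7% of all genes. Named after their values were seen, *Egr1* had 14.6, 13.3 and 16.7 RPKM in WT and 22.2, 12.0 and 12.0 RPKM in *Mll1KO*. *Nr4a1* had 20.2, 18.4 and 19.5 RPKM in WT and 27.8, 16.3 and 17.5 RPKM in *Mll1KO*, and *Sik1* 4.45, 4.47 and 4.51 RPKM in WT and 6.55, 4.79 and 4.69 RPKM in *Mll1KO*. In these genes *Mll1KO* a stood above all 5 other samples. With all samples *Egr1* and *Nr4a1* did not pass (limma adjusted p = 0.995 and 0.870). Without *Mll1KO* a their log2 differences were -0.28 and -0.19 (adjusted p = 0.0426 and 0.0436, in ranges up to 0.995 and 0.982). These genes were named because that sample stood apart in them, so these p-values are no independent test, and both genes passed only in this fit. Of its group, *Mll1KO* a also had the lowest *Dbp*, *Per1*, *Ciart* and *Usp2*, but the highest *Arntl*, *Per2* and *Nr1d1*, and it was the lowest in only 5 of the 10 clock genes. No label sets this sample apart, and whether its time or manner of collection differed was not tested. It also held the most RNA of the lens crystallin gene *Cryaa*, with 32.1 RPKM, beside 12.4 and 7.28 RPKM in *Mll1KO* b and c and 6.54, 6.61 and 7.51 RPKM in WT, and the highest level of its group in all 7 ganglion cell markers. *Cryab* was the more abundant of the 2 lens markers listed in every sample except *Mll1KO* a. The sum of both was 45.0, 38.9 and 46.2 RPKM in WT and 64.1, 46.4 and 36.4 RPKM in *Mll1KO*, and *Cryba1*, *Crybb2*, *Crygs* and *Mip* were not analysed here. Other samples stood apart in other lists. *Mll1KO* b was the highest of its group in all 3 listed markers of the retinal pigment epithelium, whose sum, led by *Ttr*, was 93.4, 80.5 and 123 RPKM in WT and 71.2, 131 and 71.5 RPKM in *Mll1KO* (*Rpe65*, *Best1* and *Lrat* were not analysed here). *Mll1KO* c was the highest in all 7 amacrine cell and all 7 cone markers. Their part in the values was not tested. Without *Mll1KO* a, 5 clock genes were called, the same 4 and *Cry2*.

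**Figure D3:**
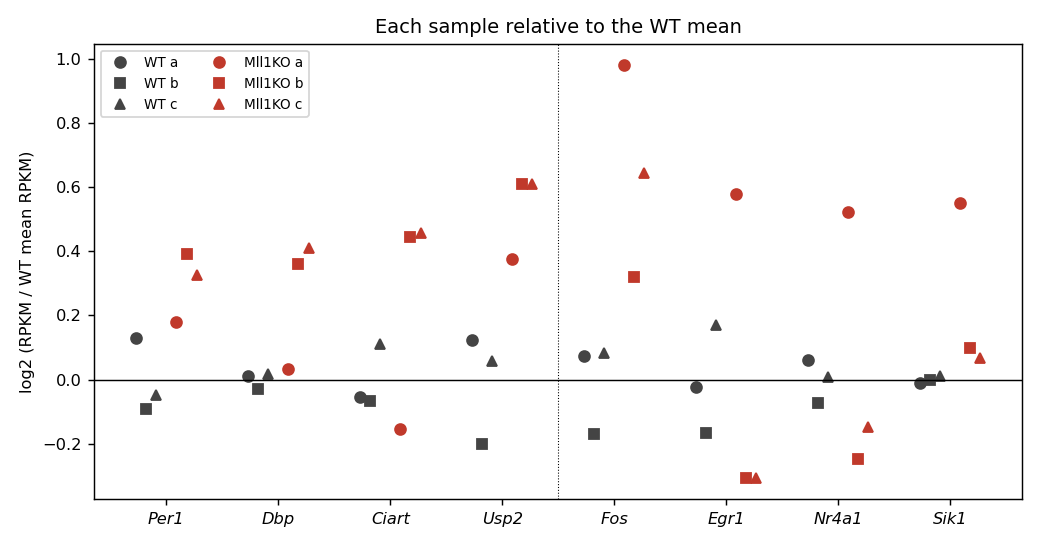
Log2 ratio of each sample's RPKM to the WT mean RPKM for 4 clock and clock-driven genes (left of the dotted line) and 4 immediate early genes (right), with WT in grey, *Mll1KO* in red and the symbol shape giving the replicate. The genes were chosen for this pattern after their values were seen, and *Arntl*, *Per2* and *Nr1d1* do not share it; *Mll1KO* sample a has the lowest *Mll1KO* value in the left group, such as *Dbp* at 19.3 RPKM, and the highest in the right group, such as *Fos* at 13.2 RPKM.

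Glucocorticoids follow a daily rhythm and rise with stress, and *Per1* is one of their targets. Of 11 glucocorticoid-induced genes 9 were listed (*Pdk4* and *Cebpd* were not analysed here), 6 rose and none fell in the limma fit, beside 8.81% and 14.5% of all genes, and the median was 0.30. *Mt2*, a metallothionein gene, had 16.4, 13.4 and 21.4 RPKM in WT and 28.1, 34.1 and 31.0 RPKM in *Mll1KO*, and rose by 0.85 without overlap (limma adjusted p = 0.00195). *Mt1*, the most abundant, rose by 0.63 (limma adjusted p = 0.00681). *Fkbp5*, *Sgk1* and *Zbtb16* rose by 0.32, 0.42 and 0.30 (limma adjusted p = 0.0161, 0.0377 and 0.00371), and the sixth gene is *Per1*. *Fkbp5* was not called without WT a (adjusted p = 0.0573), and *Sgk1* was not called without any 1 of the samples other than WT c (adjusted p up to 0.0999). *Tsc22d3* and *Klf9*, also targets of the glucocorticoid receptor, did not pass, with log2 differences of 0.10 and -0.01 (adjusted p = 0.311 and 0.867). WT sample b was the lowest of its group in 7 of the 9 genes, beside 28.0% of all genes, and WT c was the highest in 7, beside 39.0%. *Mll1KO* a was the lowest of its group in 7 as well, beside 35.3% of all genes. Glial markers were higher in *Mll1KO* too: 5 of 8 Müller glia markers rose, as given above, and all 3 astrocyte markers listed rose (*Pax2* was not analysed here). The summed level of the astrocyte markers, led by *Aldoc*, was 127, 117 and 132 RPKM in WT and 186, 187 and 179 RPKM in *Mll1KO*. Their part in these values was not tested.

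Body temperature follows the clock, and the cold-induced RNA-binding protein genes *Cirbp* and *Rbm3* and the heat shock genes respond to it. All 8 genes of this list were listed, with 1 higher, 1 lower and a median of 0.05, beside 8.81% higher and 14.5% lower among all genes. *Hspa8*, the constitutive HSP70 chaperone gene, had 72.6, 66.5 and 67.4 RPKM in WT and 19.2, 18.4 and 18.1 RPKM in *Mll1KO*. It fell by 1.84 (limma adjusted p = 2.43e-08), the greatest difference of any gene in the clock lists. *Hspa1a*, which heat induces, rose by 0.21 (limma adjusted p = 0.0404), a call lost without *Mll1KO* a, *Mll1KO* c, WT a or WT b (adjusted p up to 0.128) and with limma-voom (0.0528). *Cirbp*, the most abundant, had a log2 difference of 0.07 (95% interval -0.07 to 0.22, adjusted p = 0.463), and *Rbm3* one of 0.02 (adjusted p = 0.912). Over all the lists beside the 10 clock genes, 74 of 94 genes were listed, of which 13 rose and 12 fell, 25 in all, beside 23.3% of all genes changed, 8.81% higher and 14.5% lower. With TMM, median-of-ratios or upper-quartile scaling 16 were higher and 8 lower. With the replicate letter as a block, the calls of *Dbp*, *Ddb1*, *Hspa1a*, *Sgk1*, *Btrc*, *Btg2* and *Gnaz* were lost, with adjusted p between 0.0508 and 0.0725.

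*Per1* had the largest range of the clock genes over the 6 samples, 0.46 on the log2(RPKM + 1) scale. The 2 genes with the closest pattern, by root mean square distance over the 6 samples after subtracting each gene's mean, were *Pla2g4e* (0.03) and *1700021F05Rik* (0.03).

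The promoter windows of the clock genes, from 250 bases before to 50 bases after the start, are shown for the control elements named above. They are RefSeq sequences of build GRCm38.p6, and 9 of the 10 genes matched, with 13 windows; *Per2* has no entry. Both strands were searched for CACGTG (E-box), CACGTT (E-prime box, AACGTG on the other strand), TTATGTAA and TTACGTAA (D-box, also TTACATAA), TAGGTCA and TGGGTCA (core of the ROR element, TGACCTA and TGACCCA on the other strand) and TGACGTCA (CRE). Among all 32851 windows of 300 bases, 7.15% hold the E-box, 4.68% the E-prime box, 1.06% a D-box, 6.45% a ROR element core and 1.79% the CRE. At least 1 of these was found in 6 of the 9 genes, and in *Clock*, *Nr1d2* and *Dbp* none of these letters lie in the windows. The shares above are per motif and per window, and a gene can have several windows. The share of all genes with at least 1 motif was not counted, so the 6 of 9 have no like share beside them. *Per1* (chr11:69098699-69098998, plus strand), which rose, has 1 E-box in 1 of its 2 windows. *Nr1d1* (chr11:98775328-98775627, minus strand), which rose, has 1 E-prime box. *Cry1* (chr10:85185005-85185304, minus strand), which did not pass the test, has 1 E-box and 1 E-prime box. *Arntl* (chr7:113207261-113207560, plus strand), which fell, has 1 ROR element core in 1 of 2 overlapping windows. *Per3* (chr4:151044616-151044915, minus strand), which did not pass, has 2 D-boxes, and *Cry2* has 1 E-prime box. The sequences are written 5′ to 3′ in the direction of the gene, and capitals mark the motifs found.
Per1: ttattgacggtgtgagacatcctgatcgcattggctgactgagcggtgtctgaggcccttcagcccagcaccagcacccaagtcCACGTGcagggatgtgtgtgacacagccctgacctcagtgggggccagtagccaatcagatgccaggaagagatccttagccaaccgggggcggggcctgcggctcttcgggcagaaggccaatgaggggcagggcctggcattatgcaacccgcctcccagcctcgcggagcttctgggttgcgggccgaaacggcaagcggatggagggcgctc
Nr1d1: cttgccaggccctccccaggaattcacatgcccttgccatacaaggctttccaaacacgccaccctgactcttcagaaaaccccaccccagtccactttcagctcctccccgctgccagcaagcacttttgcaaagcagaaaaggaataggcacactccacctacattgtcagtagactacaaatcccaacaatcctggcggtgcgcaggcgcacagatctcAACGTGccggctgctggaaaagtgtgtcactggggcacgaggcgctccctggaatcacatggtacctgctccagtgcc
Cry1: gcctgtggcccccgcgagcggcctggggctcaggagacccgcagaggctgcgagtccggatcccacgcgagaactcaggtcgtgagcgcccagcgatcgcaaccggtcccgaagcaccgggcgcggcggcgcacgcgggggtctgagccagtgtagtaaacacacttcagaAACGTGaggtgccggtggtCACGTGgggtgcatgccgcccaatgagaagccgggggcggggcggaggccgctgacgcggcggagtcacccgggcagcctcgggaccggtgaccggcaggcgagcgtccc
Arntl: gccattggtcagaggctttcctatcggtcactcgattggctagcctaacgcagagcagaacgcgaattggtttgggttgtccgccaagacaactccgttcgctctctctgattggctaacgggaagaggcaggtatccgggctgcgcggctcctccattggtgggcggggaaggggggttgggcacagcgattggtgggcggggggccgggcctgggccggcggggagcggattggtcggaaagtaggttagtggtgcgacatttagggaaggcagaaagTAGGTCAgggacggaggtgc
Per3: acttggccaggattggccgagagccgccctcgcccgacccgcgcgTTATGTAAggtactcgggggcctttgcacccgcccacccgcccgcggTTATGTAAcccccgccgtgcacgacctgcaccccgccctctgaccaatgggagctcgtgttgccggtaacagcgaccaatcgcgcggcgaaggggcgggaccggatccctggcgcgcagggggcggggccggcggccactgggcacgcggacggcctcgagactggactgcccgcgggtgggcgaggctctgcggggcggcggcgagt

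The E-box of *Per1* begins at base 85 of its window and that of *Cry1* at base 191, and the 2 D-boxes of *Per3* begin at bases 46 and 93. Of the other clock transcription factors, *Ciart* (chr3:95882179-95882478, minus strand) has 3 E-boxes, and its residual SD within genotypes was the largest of these factors.
Ciart: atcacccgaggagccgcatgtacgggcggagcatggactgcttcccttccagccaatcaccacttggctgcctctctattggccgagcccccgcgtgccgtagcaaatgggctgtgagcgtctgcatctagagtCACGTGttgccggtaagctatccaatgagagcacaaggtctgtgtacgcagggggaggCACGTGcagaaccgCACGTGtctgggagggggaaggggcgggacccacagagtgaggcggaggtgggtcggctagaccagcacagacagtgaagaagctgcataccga
*Tef* and *Bhlhe41* have an E-box too, and neither passed the test, while *Bhlhe40*, which rose by 0.67, has no entry. *Rorb*, which fell, has an E-prime box and *Hlf*, which rose, a CRE. *Nfil3* has a ROR element core and *Timeless* a D-box, and neither passed. A match describes letters in a window and is not a measured binding site.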

How the data were processed

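RNA was sequenced from 3 *Mll1KO* and 3 WT retina samples. The authors aligned the reads with STAR 2.0.4b to mm10, per their processing notes, counted them with featureCounts 1.45 and deposited RPKM for genes with a CPM above 5 in at least 5 samples, which all 11339 genes met on the recovered reads. The deposited table also holds log2 fold changes and log2 mean CPM of the authors' edgeR comparison. The p-value and FDR columns of the deposited table come from that comparison by the authors too, and none of the 4 was used.

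Of 11404 lines, 11339 held different genes, and 18 symbols turned into dates were restored from gene IDs. Coordinates and exons came from GENCODE vM21 (GRCm38). Reads were recovered from RPKM as the library totals and gene lengths that make reads whole within 0.002 reads in every library (100% of genes). The annotated exon length was used for 53.3% of genes. Otherwise it was the shortest length that gave whole reads passing the authors' CPM filter, so these genes meet that filter by construction. Genotypes were compared with limma 3.58.1 in R 4.3.3 on log2(RPKM + 1) with a variance trend, the authors' scaling and no other term, instead of a count test, since RPKM is not a count. The procedure was tested on simulated reads with true log2 changes of 1 and 0.5 and the same dispersion (0.000827) for all genes. It recovered 100% of the changed genes of both sizes, and 4.31% of its calls were false. The differences of the clock genes are smaller, so the simulation does not cover them. Members and lists were chosen with earlier results of these data known. The text names all clock genes and other clock transcription factors, the called and the most abundant members of each other list, and some genes chosen after their values were seen, which the text marks or which stand beside those (*Thra*, *Sphk2*, *Tsc22d3*, *Klf9*, *Rbm3*, *Drd4*, *Csnk1d*, *Csnk1e* and *Cryaa*). Alternatives were pseudocounts of 0.1 and 5, a filter, 3 scalings, limma-voom, the replicate letter as a block, and each sample left out. Figures and tables used Python 3.11.15 with pandas 2.3.3, numpy 2.4.6 and matplotlib 3.10.9.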

Additional observations from a re-analysis of the deposited data

How the results depend on the processing

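The 4 calls among clock genes held with TMM, median-of-ratios and upper-quartile scaling, limma-voom, a pseudocount of 0.1 and the filter on a mean of 1 RPKM; with a pseudocount of 5 there were 3, without *Dbp*. Leaving out 1 sample gave between 1 (without WT b) and 5 (without *Mll1KO* a) called clock genes, and between 1704 and 2536 of all genes. *Arntl* was called in every fit run.

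The labels do not say whether the letters a, b and c pair the samples. The deviations of same-letter samples from their group means correlated at -0.039, -0.19 and -0.007 across genes. No sample correlated best with its own letter. Correlations across all genes cannot show a pairing that touches only a few genes, so none is excluded. With the letter as a replicate block 2242 genes were called, 3 of them clock genes (not *Dbp*), and 21 in the other lists.

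Over 47 single genes and 14 alternatives, the sign changed in 4 genes, none of them called with all samples. *Egr1* went from -0.0018 to 0.0286 with TMM, 0.0308 with median-of-ratios and 0.0271 with upper-quartile scaling, 0.0208 with limma-voom, 0.0059 with a pseudocount of 5, and lay between -0.28 and 0.1373 with 1 sample left out. *Nr1d2* lay between -0.0067 and 0.0601 with a sample left out, *Pdc* between -0.0066 and 0.0778, and *Nr4a1* between -0.1856 and 0.1819. The lowest values of *Egr1* and *Nr4a1* are those without *Mll1KO* a, where both passed (adjusted p = 0.0426 and 0.0436). Causes were not tested. Of the other comparisons 584 kept their direction and side of the threshold, 60 lost the call and 3 gained it (*Ciart*, *Cry2* and *Egr1*, all without *Mll1KO* a), beside the gain of *Nr4a1* with its change of sign. Among the 10 clock genes, reads limit the precision of *Per2* most, at 3.71% of its level.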
